A study of Mus musculus with 163 samples.

Results

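Outer hair cells of the Rbm24 mutant mouse cochlea were divided by their own level of Slc26a5, the gene for prestin, and every other gene was then compared between both sets. The study sequenced 163 single hair cells of mouse cochlea at postnatal day 7, of which 56 were mutant outer hair cells. A cell was called Slc26a5-positive at a level of 10 or more, as counts scaled to 1000000 in that cell (CPM), which gave 23 positive and 33 negative cells. The positive share was 41.1% (95% exact binomial interval 28.1 to 55.0, which treats cells as independent draws). Control cells carried the genotype Atoh1P2A-Tdtomato/+, in which a red fluorescent protein is expressed from the Atoh1 locus. Mutant cells carried Atoh1P2A-Cre/P2A-Tdtomato/+; Rbm24flox/flox, so that Cre recombinase, also driven from Atoh1, removes the floxed Rbm24 gene, which encodes an RNA-binding protein. Control cells lacked Cre and the floxed alleles, so Rbm24 loss cannot be told apart from the presence of Cre or the added Atoh1 allele. The reference cells were 43 control outer, 38 control inner and 26 mutant inner hair cells. How a picked cell was assigned as outer or inner is not given in the sources used here.

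Outer hair cells amplify sound by changing their length, and prestin is the membrane motor protein that drives this movement. Ikzf2 encodes helios, a transcription factor needed for the outer hair cell programme, and Ocm encodes oncomodulin, a calcium-binding protein of mature outer hair cells. Insm1 encodes a zinc finger factor that is active for a short period in newly formed outer hair cells and keeps them from taking on inner hair cell features.

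Promoter sequence of Slc26a5 is shown because it defines the sets, and those of Aqp11 and Proser2 because these genes were higher with it; both were chosen after their values were seen. Each run holds the bases from 250 to 51 before the RefSeq start (GRCm38.p6), 5′ to 3′ on the minus strand. The windows lie at chr5:21865655-21865854 for Slc26a5, chr7:97738298-97738497 for Aqp11 and chr2:6130236-6130435 for Proser2. All 3 lie outside the gene bounds of the GENCODE vM21 annotation. Capitals mark the E-box CANNTG, the letters that ATOH1 and other basic helix-loop-helix factors bind, or the Ikaros family core TGGGAA, on either strand.
Slc26a5: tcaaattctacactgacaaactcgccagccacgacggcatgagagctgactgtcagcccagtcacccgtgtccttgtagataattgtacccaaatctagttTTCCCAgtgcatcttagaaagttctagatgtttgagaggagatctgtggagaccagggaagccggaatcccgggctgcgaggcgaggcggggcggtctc
Aqp11: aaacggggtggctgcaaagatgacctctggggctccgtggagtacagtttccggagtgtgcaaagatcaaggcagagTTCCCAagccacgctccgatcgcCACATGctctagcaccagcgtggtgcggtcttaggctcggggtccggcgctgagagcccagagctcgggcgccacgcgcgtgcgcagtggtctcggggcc
Proser2: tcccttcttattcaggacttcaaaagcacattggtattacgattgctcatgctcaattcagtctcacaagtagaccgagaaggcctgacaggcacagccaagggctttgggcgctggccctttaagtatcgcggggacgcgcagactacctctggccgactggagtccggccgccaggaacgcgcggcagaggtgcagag
The Slc26a5 window held 1 Ikaros core and 0 E-boxes. The Aqp11 window held 1 of each, and the Proser2 window held 0 of either. Among 32851 RefSeq promoter windows of the same 200 bases, 59% held an E-box and 17.9% an Ikaros core. A match is a description of letters only.

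Slc26a5 itself (ENSMUSG00000029015.9, chr5:21810655-21865604, mm10) was the value used to choose the sets, so its levels are given without a comparison. The positive cells ran from 12.4 CPM through a median of 33.5 to 349 CPM, and the negative cells from 0 through a median of 0 to 8.23 CPM. The nearest cells to the threshold were therefore at 8.23 and 12.4 CPM, and 22 of the 33 negative cells had 0 counts. In control outer hair cells the level ran from 0.156 through a median of 344 to 1169 CPM, and 41 of 43 reached 10 CPM. Most positive mutant cells thus lay below the control median, and 1 lay just above it. None of 38 control inner hair cells reached 10 CPM (highest 5.96 CPM), which allows a share of up to 7.89%. Among mutant inner hair cells 1 of 26 reached it, at 12.6 CPM.

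**Figure D1:**
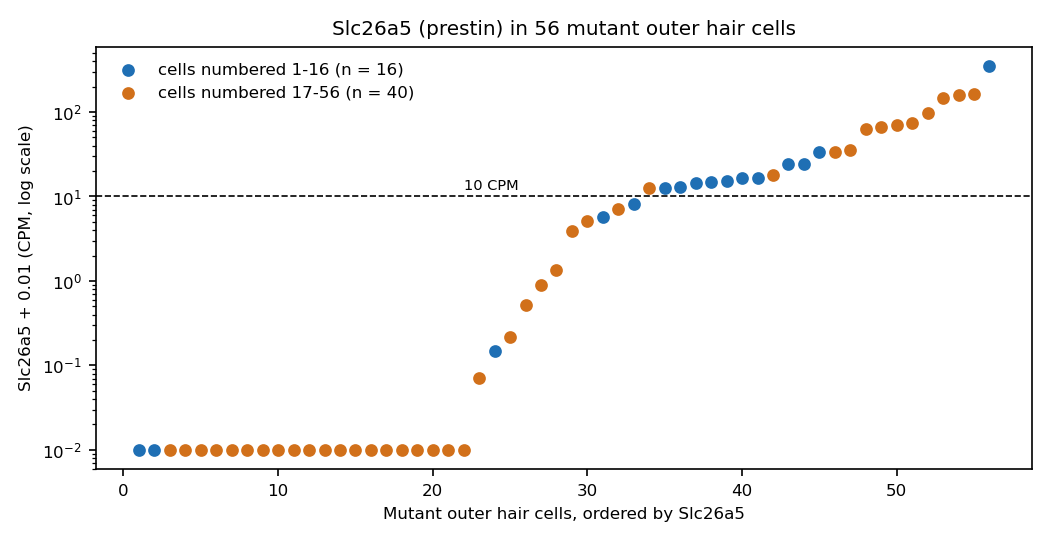
Slc26a5 in each of the 56 mutant outer hair cells, ordered from low to high on the x axis, as CPM + 0.01 on a log y axis; points are cells, coloured by title number, and the dashed line is the 10 CPM threshold. The 22 cells with 0 counts form the floor, and the positive cells climb from 12.4 to 349 CPM.

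Positive cells were unevenly spread over the numbering of the titles. Among cells numbered 1-16, 11 of 16 were positive (68.8%, 41.3 to 89.0), and among cells 17-56, 12 of 40 (30.0%, 16.6 to 46.5). The labels do not say what the numbers stand for. All 16 cells of the first range had 10 CPM or more from chromosome Y, whereas in the second range 34 cells had Xist, the RNA of the inactive X, at 10 CPM or more, and 6 reached it in neither. Number range and sex therefore cannot be told apart, and no label names the animal of a cell. For that reason each set counts as 1 sample, no p-value is given, and the main ratios are followed by their values within cells 1-16 (11 against 5 cells) and 17-56 (12 against 28 cells). Positive cells of the first range were mostly near the threshold (median 16.7 CPM) and those of the second range were higher (median 68.5 CPM).

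Depth was alike in both sets. Total counts ran from 8.34e+06 to 1.70e+07 in positive cells (median 1.29e+07) and from 8.56e+06 to 1.69e+07 in negative cells (median 1.26e+07), and the threshold equalled 83.4 counts in the shallowest cell. A median of 10113 genes had a count in positive and 9633 in negative cells. Within each range the order was the opposite, at 10568 against 10928 in cells 1-16 and 9072 against 9499 in cells 17-56. The mitochondrial share of counts had medians of 5.14% and 3.87%, with overlapping ranges of 3.31 to 7.88% and 1.58 to 6.22%. Within ranges the medians were 5.14% against 4.54% and 5.34% against 3.59%, so this share moved with the sets, and its part in the differences below was not tested. Rbm24 was at 0.148 CPM in the summed counts of positive and 0.260 CPM of negative cells, against 315 CPM in control outer hair cells, so neither set retained it.

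Each set's counts were added up and compared as a log2 ratio, positive over negative. Intervals are exact 95% binomial intervals of that ratio and cover counting error only. Of 14540 genes whose average over both sets was at least 1 CPM, 1927 (13.3%) were at least 2-fold higher in Slc26a5-positive cells and 1844 (12.7%) at least 2-fold lower. Within cells 1-16 these shares were 22.6% and 16.5%, and within cells 17-56 they were 14.8% and 22%. Over all cells 48.6% of genes were higher and 51.4% lower, with a median log2 ratio of -0.02. These shares are the background for every list that follows.

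Among 12 of 13 listed outer hair cell genes that could be compared (Slc26a5 not among them), 6 were higher and 6 lower. Ocm, Ikzf2, Aqp11 and Car7 were at least 2-fold higher, which is 4 of 12 against the background of 13.3%, and Neurod6 was the 1 member at least 2-fold lower. The list median was 0.05 (interval -0.27 to 2.21), beside -0.02 for all genes. The remaining members, among them Strip2, Chrna9 and Chrna10, lay within 2-fold. Ppp1r17 was too low to compare.

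Ikzf2 ran from 0 through a median of 15.5 to 348 CPM in positive cells and from 0 through 0.0793 to 127 CPM in negative cells. It reached 10 CPM in 13 of 23 positive cells and in 8 of 33 negative cells. The sets overlapped, and 7 positive and 14 negative cells had 0 counts. Summed levels were 74.4 and 14.6 CPM, a log2 ratio of 2.35 (2.31 to 2.39), with 1.22 and 2.90 within the ranges. The control outer hair cell level was 174 CPM, above both.

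Ocm was low in both sets. It ran from 0 through 0.217 to 377 CPM in positive cells and from 0 through 0 to 63.3 CPM in negative cells, while the control median was 3162 CPM. It reached 10 CPM in 9 positive cells and 6 negative cells. The log2 ratio of the sums (34.4 and 6.91 CPM) was 2.32, but it was 0.24 within cells 1-16 and 3.43 within cells 17-56, so the difference lay in the second range. The highest cell of each set carried 30.5% and 37.2% of the summed counts.

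Aqp11, an aquaporin of intracellular membranes, was found in more cells. It ran from 0.0829 through 129 to 762 CPM in positive cells and from 0 through 32.0 to 190 CPM in negative cells, and 19 of 23 against 21 of 33 reached 10 CPM. The highest positive cells lay above every negative cell, and the lower ones overlapped. Summed levels were 216 and 46.7 CPM (log2 ratio 2.21, with 0.87 and 2.86 within the ranges), and the control level was 966 CPM. Tmc1, the pore-forming subunit of the mechanotransduction channel, was at 476 and 194 CPM (log2 ratio 1.29, with 0.43 and 1.68), beside 581 CPM in control outer hair cells. The share of cells at 10 CPM or more went the other way, at 19 of 23 positive and 29 of 33 negative cells. It was the only 1 of 11 mechanotransduction genes past 2-fold, and 9 of the 11 were lower.

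**Figure D2:**
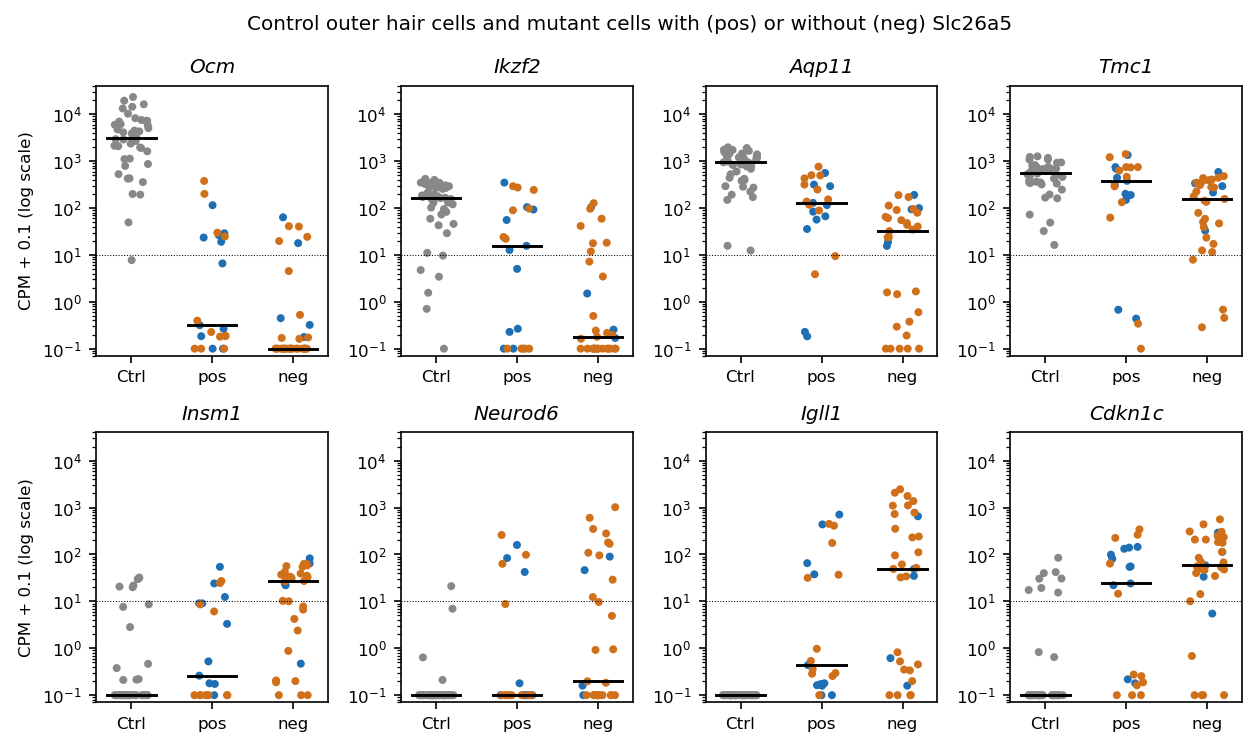
CPM + 0.1 on a log y axis of 8 genes in single control outer hair cells (Ctrl, n = 43, grey) and in Slc26a5-positive (pos, n = 23) and negative (neg, n = 33) mutant outer hair cells, blue for cells 1-16 and orange for cells 17-56. Bars are medians and the dotted line is 10 CPM; Ikzf2 and Aqp11 sit higher and Insm1 and Igll1 lower in the positive cells, with overlap in each case.

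General hair cell genes were at similar levels in both sets. Of 14 identity genes, 5 were higher and 9 lower, 13 lay within 2-fold and the median was -0.30. Pou4f3, the hair cell survival transcription factor, was at 490 and 485 CPM, and Myo6, an unconventional myosin, at 2645 and 2687 CPM. Calb1, a calcium buffer, was at 13831 and 11381 CPM. Rfx1, a ciliogenic factor at 3.98 and 9.13 CPM, was the 1 member past 2-fold.

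Among 12 of 16 neurogenic and neuroendocrine genes that could be compared, 4 were higher, 8 lower and 4 at least 2-fold lower (Insm1, Neurod6, Scg2 and Elavl4), against 12.7% of all genes. The median was -0.39 (-1.82 to 0.08), with -0.08 within cells 1-16 and -1.01 within cells 17-56. Scg2 and Elavl4 rested on 1 or 2 cells above 10 CPM, and Neurod6 was also counted among the outer hair cell genes above. Chgb and Scg3, secretory granule proteins, lay near 0 on the log2 scale at 0.07 and 0.10.

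Insm1 was the most even of these. It ran from 0 through 0.161 to 54.5 CPM in positive cells and from 0 through 26.7 to 82.7 CPM in negative cells, and 5 of 23 against 20 of 33 cells reached 10 CPM. The median negative cell lay above most positive cells, although the sets overlapped. Summed levels were 7.62 and 26.8 CPM, a log2 ratio of -1.82 (-1.88 to -1.75), and -2.00 and -2.19 within the ranges. In control outer hair cells 6 of 43 reached 10 CPM.

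Neurod6, a neuronal basic helix-loop-helix factor, was absent from most cells of both sets. It reached 10 CPM in 6 of 23 positive and 12 of 33 negative cells, with highest cells at 261 and 1021 CPM. The ratio of the sums (29.7 and 100 CPM) was -1.76, yet it was -0.05 within cells 1-16 and -1.71 within cells 17-56. Igll1, an immunoglobulin light chain-like gene that was listed at 0 in every control outer hair cell, ran from 0 through 0.337 to 710 CPM in positive cells and from 0 through 49.1 to 2461 CPM in negative cells. It reached 10 CPM in 9 of 23 against 21 of 33. Summed levels were 109 and 411 CPM (log2 ratio -1.91), again with little difference within cells 1-16 (-0.07) and more within cells 17-56 (-2.35).

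Igll1 belongs to 14 genes gained in mutant outer hair cells, a list that was chosen on these same cells and is no independent evidence. Of the 14, 12 were lower in positive cells and 2, Mapk10 and Vegfd, were higher, with a median of -0.61 (-0.05 and -0.97 within the ranges). Sema3c, a secreted semaphorin, was at 26.3 and 60.8 CPM and reached 10 CPM in 9 of 23 against 24 of 33 cells. Its ratio of -1.21 was similar within the ranges at -1.40 and -1.16. Fam92b was at 73.9 and 144 CPM, in 13 of 23 against 30 of 33 cells. Cdkn1c, a cyclin-dependent kinase inhibitor, was at 71.0 and 125 CPM (-0.82, with -0.58 and -0.84). All 3 genes were far lower in control outer hair cells, at 0.143, 0.125 and 5.44 CPM. The 12 genes lost in mutant outer hair cells, chosen the same way, left 6 that could be compared, all 6 higher, with a median of 1.87 that was 0.15 within cells 1-16 and 3.87 within cells 17-56.

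Single cells combined these genes in different ways, counted here in combinations chosen after the values were seen. The intervals of these shares treat each cell as an independent draw. They do not cover spread between animals and are no test. Ikzf2 at 10 CPM or more with none of Insm1, Neurod6 and Igll1 was found in 10 of 23 positive cells (43.5%, 23.2 to 65.5) and 2 of 33 negative cells (6.06%, 0.743 to 20.2). By range these were 4 of 11 against 0 of 5 and 6 of 12 against 2 of 28. Insm1 together with Igll1 was found in 2 of 23 positive cells (8.70%, 1.07 to 28.0) and 15 of 33 negative cells (45.5%, 28.1 to 63.6). By range these were 1 of 11 against 3 of 5 and 1 of 12 against 12 of 28. Yet 7 positive cells had neither Ikzf2 nor Ocm, and 12 negative cells had 1 or both. Both kinds of combination thus occurred on each side of the threshold.

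The counts were also taken by Slc26a5 level. Of the 14 cells at 20 CPM or more of Slc26a5, 10 had Ikzf2 at 10 CPM or more, 2 had Insm1, 1 had Neurod6 and 4 had Igll1. Of the 9 cells from 10 to under 20 CPM, 3 had Ikzf2, 3 had Insm1, 5 had Neurod6 and 5 had Igll1. The 22 cells at 0 had Ikzf2 in 4, Insm1 in 14, Neurod6 in 10 and Igll1 in 15. Neurod6 and Igll1 were each in 5 of the 9 cells just above the threshold, and Ikzf2 was most frequent in the highest cells. Of these 9 cells 7 were numbered 1-16, against 4 of the 14 higher cells, so level and number range cannot be told apart. Median Tmc1 was 139 CPM in cells at 0, 214 CPM above 0 to under 10, 201 CPM at 10 to under 20 and 575 CPM at 20 CPM or more.

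**Figure D3:**
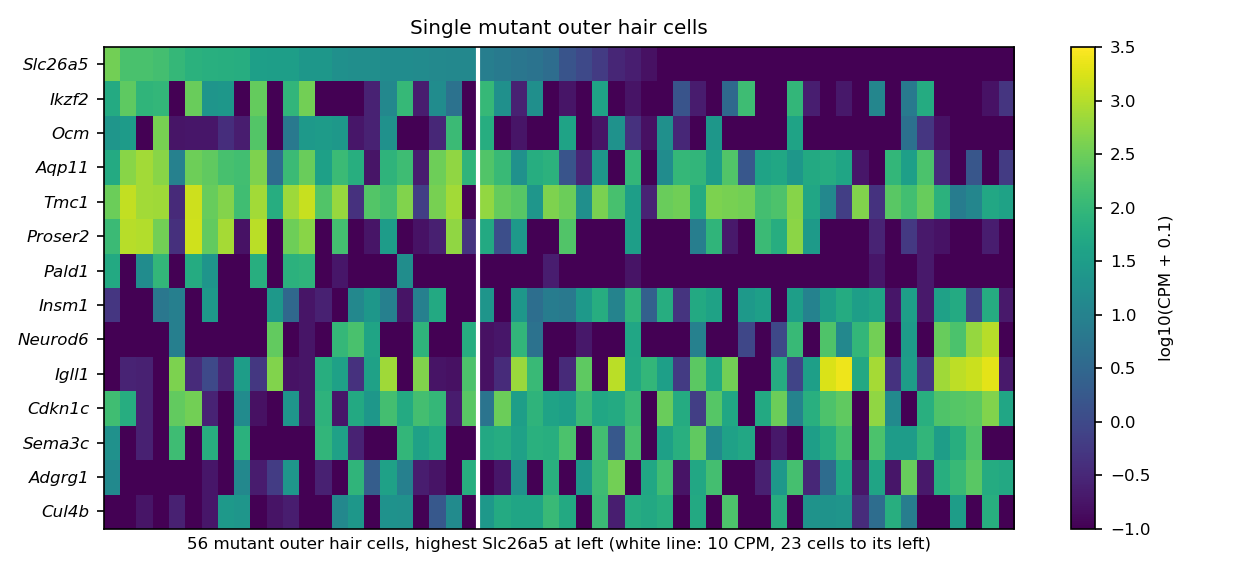
Log10(CPM + 0.1) of 14 genes (rows) in the 56 mutant outer hair cells (columns), highest Slc26a5 at the left, with a white line at 10 CPM. The 23 positive cells to its left hold 13 cells with Ikzf2 at 10 CPM or more and 5 with Insm1, and the 33 to its right hold 8 and 20.

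A broader set was taken from the controls alone: the 100 genes most enriched in control outer over control inner hair cells, which no mutant cell helped to choose. Of 97 that could be compared, 72 were higher and 25 lower in positive cells, beside 48.6% higher among all genes. At least 2-fold higher were 33 and at least 2-fold lower 2, beside 13.3% and 12.7% of all genes. The median was 0.36 (0.20 to 0.59), but 0.01 within cells 1-16 and 0.51 within cells 17-56. Counted per cell, positive cells had 37 to 77 of the 100 genes at 10 CPM or more (median 60) and negative cells 36 to 75 (median 54). Within cells 1-16 the medians were 61 and 65, the opposite order, and within cells 17-56 they were 55.5 and 53.5. Control outer hair cells had 35 to 91 (median 78) and control inner hair cells 9 to 32 (median 17). Both mutant sets thus kept many outer hair cell genes and overlapped almost fully. Their medians lay between those of the control types, and their ranges lay within that of control outer hair cells.

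Rnd1, a small GTPase-like protein, was at 22.3 CPM in positive cells, with 6 cells at 10 CPM or more, and at 0 counts in all 33 negative cells. At a floor of 3 counts over the negative set this is a log2 ratio of at least 11.59. Glul, glutamine synthetase, was at 31.3 and 1.95 CPM (4.00, with 1.20 and 5.37), with 5 and 2 cells. Wscd2 was at 11.5 and 0.640 CPM (4.16, with 7.72 and 4.22), with 8 and 1 cells. In each case a minority of positive cells carried the level.

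The same choice was made for control inner hair cells. Of 85 that could be compared, 23 were higher and 62 lower in positive cells, beside 51.4% lower among all genes, and the median was -0.56 (-0.13 and -0.72 within the ranges). Per cell, positive cells had 9 to 42 of these genes at 10 CPM or more (median 28), negative cells 20 to 43 (median 32), control outer hair cells 7 to 41 (median 17) and control inner hair cells 62 to 92 (median 81). Mal2, a membrane trafficking protein, was at 0.394 and 7.46 CPM, and Necab2, a neuronal calcium-binding protein, went against the list at 197 and 44.2 CPM (2.15, with 3.62 and 2.52).

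Inner hair cell genes were mixed in level, with 3 of 12 listed members under 1 CPM in each set and summed levels per cell at medians of 1495 and 1452 CPM. Slc17a8, the glutamate transporter of inner hair cell synaptic vesicles, was at 0.0558 and 0.0409 CPM against 252 CPM in control inner hair cells, and no mutant outer hair cell reached 10 CPM. Tbx2, the inner hair cell transcription factor, reached 10 CPM in 1 cell of each set. Fgf8 did so in 2 positive cells. Cabp2, a calcium-binding protein of hair cell synapses, was at 3.20 and 13.7 CPM. Of 10 inner hair cell genes compared, 5 were higher and 5 lower, with a median of -0.01 (interval -2.10 to 1.76). At least 2-fold higher were 2 and at least 2-fold lower 4, beside 13.3% and 12.7% of all genes. Without the highest cell of each set the median was -0.67. Otof, otoferlin of the ribbon synapse, was at 489 and 317 CPM.

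**Figure D4:**
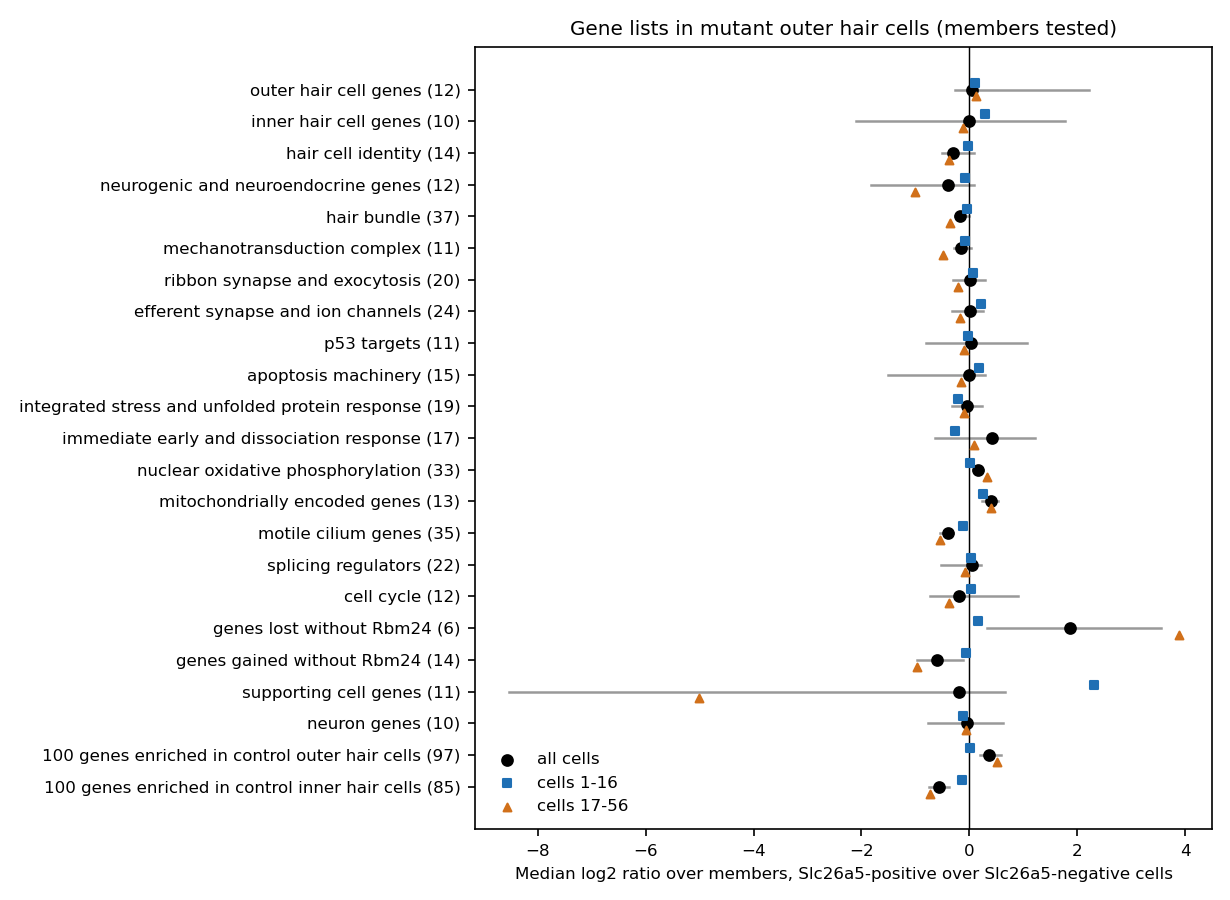
Median log2 ratio of summed CPM, positive over negative mutant outer hair cells, on the x axis for gene lists with at least 6 comparable members (number in brackets on the y axis); black points are all cells with order-statistic intervals over members as grey lines, blue squares cells 1-16 and orange triangles cells 17-56. Genes enriched in control outer hair cells sit at 0.36 and those enriched in control inner hair cells at -0.56, and both lie nearer 0 in cells 1-16.

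Of 37 hair bundle genes, 35 lay within 2-fold, 12 were higher and 25 lower, with a median of -0.17. The members past 2-fold were Pls3, an actin-bundling plastin that was higher at 6.40 and 2.76 CPM but reached 10 CPM in 2 and 1 cells, and Fscn2. Fscn2, an actin-bundling protein of stereocilia, ran from 0 through 65.2 to 258 CPM in positive cells and from 52.6 through 220 to 648 CPM in negative cells. All 33 negative cells reached 10 CPM but only 16 of 23 positive cells. The log2 ratio of -1.52 came from cells 17-56 (-1.95), with 0.00 in cells 1-16. Ribbon synapse and exocytosis genes split 10 and 10, where Syt7 (24.6 and 57.9 CPM) and Stx1a (56.9 and 117 CPM) were lower and Cabp4 (18.1 and 5.35 CPM) higher. Ion channel and efferent synapse genes split 12 and 12. P2rx2, an ATP-gated channel subunit, was higher at 54.7 and 14.1 CPM (1.95, with 1.51 and 2.32), and its relative P2rx3 was lower at 9.57 and 40.8 CPM, where 1 cell carried 80.3% of the positive and 1 cell 47.5% of the negative counts.

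Among motile cilium genes, 28 of 35 were lower, beside 51.4% of all genes, with a median of -0.40 (-0.12 and -0.54 within the ranges). Rfx2, a ciliogenic transcription factor, was at 4.51 and 15.2 CPM, while the axonemal dyneins Dnah9 (22.5 and 9.75 CPM) and Dnah11 (21.8 and 8.55 CPM) were higher. All 13 mitochondrially encoded genes were higher, beside 48.6% of all genes, with a median of 0.40 (0.25 and 0.39), and none passed 2-fold. Nuclear genes of oxidative phosphorylation were higher in 27 of 33, with a median of 0.17 (0.01 and 0.32).

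Genes of cell death and stress showed no common direction. Of 11 p53 targets 6 were higher, of 15 apoptosis genes 8, and of 19 stress response genes (integrated and unfolded protein) 8, with medians of 0.03, 0.00 and -0.04. At least 2-fold higher and lower were 4 and 1 of the p53 targets, 1 and 4 of the apoptosis genes and 2 and 0 of the stress genes. The shares over all genes were 13.3% and 12.7%. Cdkn1a, a p53 target that halts the cell cycle, was at 97.3 and 41.6 CPM, with -0.44 within cells 1-16 and 2.07 within cells 17-56. Immediate early genes, which cell dissociation can also induce, were higher in 10 and lower in 7 of 17 cases, with 6 at least 2-fold higher and 3 at least 2-fold lower. Their median was 0.42 (interval -0.65 to 1.21), but -0.26 within cells 1-16 and 0.08 within cells 17-56. Egr1 among them was at 190 and 47.7 CPM, in 13 of 23 against 9 of 33 cells. Of 12 cell cycle genes compared, 5 were higher and 7 lower, with 2 at least 2-fold higher and 0 at least 2-fold lower. Their median was -0.19 (0.02 and -0.38 within the ranges). Ccnd1, cyclin D1, was at 26.5 and 0.768 CPM, in 6 against 1 cells.

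Transcripts of other cell types were compared in the same way. Over all genes, 13.3% were at least 2-fold higher and 12.7% at least 2-fold lower. Of 19 supporting cell genes 11 could be compared, 5 higher and 6 lower, with 1 at least 2-fold higher and 5 at least 2-fold lower. Their median was -0.19, but 2.31 within cells 1-16 and -5.02 within cells 17-56, so the direction differed by range. Their summed level ran from 42.8 to 1716 CPM in positive and from 81.1 to 1128 CPM in negative cells (medians 382 and 298), most of it S100a1. The sum of 10 immune genes had medians of 158 and 290 CPM, nearly all from C1qb (203 and 314 CPM), while Aif1, Cx3cr1 and Csf1r were at or near 0. Of these 10, 4 could be compared, 2 higher and 2 lower, with 1 at least 2-fold higher. Their median was 3.55 within cells 1-16 and -0.34 within cells 17-56. The sum of 7 glial genes had medians of 248 and 337 CPM, nearly all from Cnp, with Sox10 and Mag at or near 0. Of these 7, 3 could be compared, 1 higher and 2 lower, with 1 at least 2-fold lower. Of 14 neuron genes 10 could be compared, 5 higher and 5 lower, with 1 at least 2-fold lower and a median of -0.05. The sum of the 14 had medians of 1842 and 1648 CPM. Mesenchymal, endothelial and erythroid sums had medians of 0 or 0.0646 CPM at most. The part of other cells in the results was not tested.

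Genes were further named by size of ratio, with the same direction required in both ranges. They had to reach 20 CPM in the higher set and 10 CPM in a minimum share of its cells. Their share of cells in the higher set was thus in part fixed by the choice. Genes with larger ratios, such as Rnd1, did not pass. Of those that passed, the genes furthest higher in positive cells were led by Pald1 (chr10:61319656-61383530), a phosphatase domain protein. It reached 10 CPM in 9 of 23 positive and 0 of 33 negative cells, at 20.6 and 0.0120 CPM, a log2 ratio of 10.74 (9.52 to 12.37), with 10.61 and 10.75 within the ranges. In control outer hair cells it was at 64.1 CPM, in 23 of 43 cells. Proser2 (chr2:6097607-6130211), a proline and serine-rich protein, ran from 0 through 118 to 1514 CPM in positive cells and from 0 through 0.0692 to 522 CPM in negative cells, and 13 of 23 against 9 of 33 reached 10 CPM. Its summed levels were 338 and 31.1 CPM (3.44, with 2.68 and 4.02), beside 609 CPM in control outer and 8.63 CPM in control inner hair cells. The other 10 of the 12 named were Inppl1, Hmgxb4, Hs1bp3, Nfix, Rflnb, Zfp758, Zfp608, Cygb, Ccn1 and Shisa8. Ccn1 showed little difference within cells 1-16 (0.08) and 3.26 within cells 17-56. Its highest cell carried 38.0% of the positive and 69.2% of the negative counts. Hmgxb4 and Nfix were at 0 in negative cells 1-16, so their ratios there rest on the floor of 3 counts. Inppl1, Nfix and Cygb have exons that overlap opposite-strand genes. Among other genes named here, so do Pknox1, Rbbp8, Cabp4, Ccnd1, Chrna10, Cnp, Csf1r, P2rx3 and Rfx1. The strand setting of the counting is not given in the sources used here. Reads from such overlaps cannot be told apart. The overlapping gene is Prcd for Cygb, at 29.3 CPM, Gpr152 for Cabp4, at 35.1 CPM, LTO1 for Ccnd1, at 16.4 CPM over 818 bases, and Ssrp1 for P2rx3, at 78.9 CPM over 39 bases.

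In the lower direction the first that passed the same filter were Pknox1, a homeodomain factor, and Polr3g, an RNA polymerase III subunit. Pknox1 was at 1.49 and 23.4 CPM (-3.97, with -0.95 and -4.18) and Polr3g at 2.25 and 28.5 CPM (-3.66, with -2.98 and -7.91). Pknox1 reached 10 CPM in 1 of 23 against 11 of 33 cells and Polr3g in 2 against 12. Adgrg1, an adhesion G protein-coupled receptor, was at 10.7 and 62.8 CPM (-2.56, with -1.10 and -3.51) and in 6 of 23 against 19 of 33 cells, beside 3.25 CPM in control outer hair cells. Cul4b, a scaffold of ubiquitin ligases, was at 6.28 and 36.3 CPM (-2.53, with -2.45 and -2.77) and in 7 of 23 against 19 of 33 cells, and its control level of 40.6 CPM was near that of negative cells. Nme9, Pard6b, Ttc12, Rbbp8, Ppp2r5a, Kbtbd8, Rassf10 and Gmds were also among the 12. Rbbp8 had a log2 ratio of -2.60, with little difference within cells 1-16 (-0.07) and -3.45 within cells 17-56. Over all genes, 1054 of 13805 comparable in both ranges (7.63%) were at least 2-fold higher and of 1 direction in both, and 1038 (7.52%) at least 2-fold lower.

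**Figure D5:**
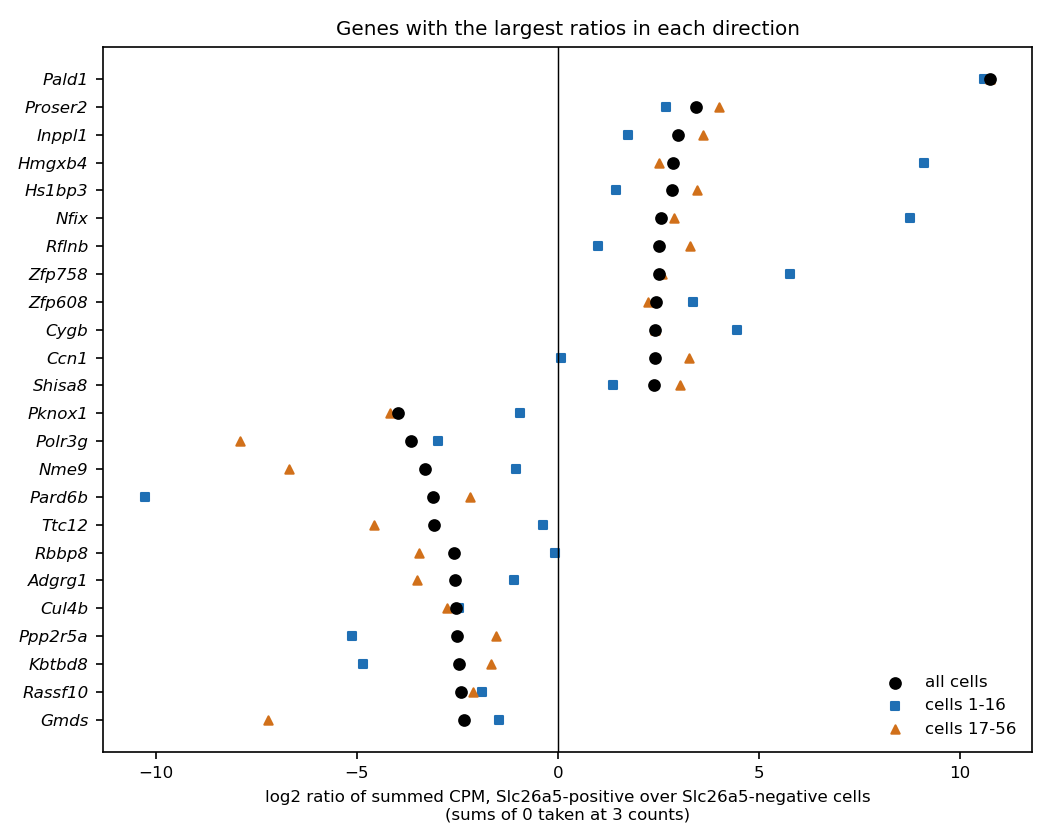
Log2 ratio of summed CPM, positive over negative mutant outer hair cells, on the x axis for the 12 genes named by size in each direction (y axis). They have the largest ratios among genes that passed the filters on level, share of cells and direction. Black points are all cells, blue squares cells 1-16, orange triangles cells 17-56, and a sum of 0 is taken at 3 counts. Pald1 stands at 10.74 and Pknox1 at -3.97, and the direction is the same in both ranges because the choice required it.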

How the data were processed

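Single hair cells, picked from dissociated mouse cochlea, were sequenced as full-length cDNA of polyadenylated RNA (Smart-Seq HT), per the labels' protocols. The authors deposited counts per gene, made with HISAT2 2.2.1, SAMtools and featureCounts 2.0.1 on mm10, per the submitters' processing notes; the annotation and strand setting are not given in the sources used here. Of 55291 gene IDs 55034 (99.54%) matched GENCODE vM21 and 257 did not; names and coordinates come from it.

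Each cell's counts were scaled to CPM. Mutant outer hair cells were divided at 10 CPM of Slc26a5, counts were summed within each set, and genes averaging at least 1 CPM over both sets were compared, with called meaning 2-fold or more. No test was made, since no label names the animal. A set summing to 0 was taken at 3 counts. Intervals are at 95%. Those of ratios cover counting error only, and the labels name no molecular tags. Those of shares of cells treat each cell as an independent draw and do not cover spread between animals. List intervals are order statistics over members. No pair of libraries was a repeat: chi-squared over degrees of freedom was at least 496.7 for any pair of mutant outer hair cells (2000 genes). The method was tested on simulated counts that held counting error only. They had no spread between cells, so the test does not cover the spread seen in these data. Python 3.11.15, pandas 2.3.3, numpy 2.4.6, scipy 1.17.1, matplotlib 3.10.9 and R 4.3.3 with edgeR 4.0.16 (TMM factors only) were used.

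Genes were named by a rule: Slc26a5, Ikzf2, Ocm, Rbm24, Insm1, Igll1, members of the outer, inner, identity and neurogenic lists, and 4 per other list with the largest ratio at 5 CPM or more in the higher set. By size, 12 per direction were named, at 20 CPM or more in the higher set and 10 CPM in a minimum share of its cells, with the same direction in both number ranges. S100a1, C1qb, Cnp, Prcd, Mapk10, Vegfd and the markers named as near 0 fall outside it and were chosen after their values were seen. The sets, members and lists were chosen with earlier results of these data known. Alternatives were other Slc26a5 thresholds, filters, scaling, mean CPM over cells, leaving out the highest cell of each set, and each number range. Promoter sequences are from RefSeq (GRCm38.p6); all 3 genes shown matched by symbol.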

Additional observations from a re-analysis of the deposited data

How the results depend on the processing

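The count of genes at least 2-fold higher was 1927. It was 776 with a filter at 5 CPM, 4166 with no filter, 1209 without the highest cell of each set for each gene, and 3232 within cells 1-16. The count at least 2-fold lower was 1844. It was 762 with a filter at 5 CPM, 4574 with no filter, and 3094 within cells 17-56. Filters change how many genes are compared (10748 and 21461 against 14540). For the other values the cause was not tested. The other 13 alternative counts stayed within 1.5 times. Of 230 alternative list medians 23 left the main interval. Of these 230, 35 changed sign, 0 of them in the 8 lists whose main interval excludes 0. Ratios were also repeated for 31 genes: Ikzf2, Ocm, Insm1, Igll1, Neurod6, Tmc1, Aqp11 and the 24 named by size. Of their 248 alternative ratios, 191 left the counting interval of the main ratio and 57 did not. Pald1 went from 10.74 to 6.33 at the 20 CPM threshold, and without the highest cells Nme9 went from -3.30 to -6.73 and Pard6b from -3.11 to -10.34. None of the 31 changed sign, which for the 24 genes named by size the choice itself fixed within both ranges. Other named genes were not among the 31, and Cdkn1a, higher over all cells, was lower within cells 1-16. TMM factors moved the median ratio by 0.0094. Leaving out cells at 5 to 20 CPM of Slc26a5 was added after the data were seen, and left 14 positive and 29 negative cells. The 20 CPM threshold also left 14 positive cells, 4 of them numbered 1-16. No paired analysis was possible because no value comes from a test and the numbers in the titles only name cells. With 5 negative cells in the first range and no animal labels, the precision across animals is unknown.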

Other observations

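Genes were also ranked by how closely their level followed Slc26a5 over the 56 mutant outer hair cells, as Spearman's rank correlation among 8198 genes, with genes named after the ranking was seen. The cells share their libraries' depth and number range, so this is a description. Among the most positive were Ccz1 (0.50), Aqp11 (0.50) and Bhlhe40 (0.49), a basic helix-loop-helix repressor. Within cells 17-56 these were 0.56, 0.53 and 0.48, and within cells 1-16 they were -0.14, -0.02 and 0.42, so of the 3 only Bhlhe40 had a positive correlation above 0.4 in each range. The most negative were Anxa4, an annexin that binds membranes with calcium (-0.60, with -0.27 and -0.59 within the ranges), and Fscn2 (-0.54, with 0.04 and -0.49). Fam81b was at -0.50, with -0.52 in cells 1-16 and -0.41 in cells 17-56.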
